A study of Mus musculus with 17 samples.

Results

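Chemokines are small secreted proteins that guide the movement of leukocytes, and their receptors are G protein-coupled receptors on the cells that follow them. The genes of both were read in cochlear RNA of mice with and without noise exposure. Members were the protein-coding genes whose symbol begins with Ccl, Cxcl, Cx3cl, Xcl, Ccr, Cxcr, Cx3cr, Xcr or Ackr followed by a digit, which gave 59 genes of the 35285 measured. Of these, 36 were ligands, 19 were receptors and 4 were atypical receptors, and all 17 libraries were used. Cxcl11 is annotated as a polymorphic pseudogene in the deposited table and fell outside the rule, as did the pseudogenes Ccl19-ps1 and Ccl19-ps3 and the platelet chemokines Ppbp and Pf4, whose symbols lack the family prefix.

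Each library came from the cochlear RNA of 1 male C57BL/6J mouse aged 8 weeks, of wild-type genotype, taken 2 days after the exposure. The 3 mice of the control group received saline by intraperitoneal injection and heard no noise. The 7 mice of the NE (noise exposure) group heard noise between 8 and 16 kHz at 100 dB SPL during 2 h. The 7 mice of the brimonidine group heard the same noise and received 3 intraperitoneal injections of brimonidine at 1 mg/kg, an agonist of the α2-adrenergic receptor, on the day before, the day of and the day after the exposure. Saline is described for the control mice, and no injection is described for the NE mice. The labels give the cell type as interstitial cells, and they call the noise broadband where the study's methods describe an octave band. The study's methods name cochleae in 1 place and basilar membrane tissue in another as the source of the sequenced RNA.

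Chemokines are named after the spacing of the first cysteines of the protein, as CC, CXC, CX3C and XC. CXC ligands such as Cxcl1, Cxcl2 and Cxcl5 act on Cxcr2 and draw neutrophils, Ccl2 and Ccl7 act on Ccr2 and draw monocytes, Ccl11 acts on Ccr3 and draws eosinophils, and Cxcl9 and Cxcl10 act on Cxcr3 and draw activated T cells. Others act without inflammation, such as Cxcl12, which holds Cxcr4-bearing cells in the bone marrow. Atypical receptors bind chemokines without the usual G protein signal and clear or transport them. In the cochlea, chemokines are known from the recruitment of monocytes and macrophages after noise.

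The values are FPKM, the fragments counted on a gene per kilobase of exon and per unit of library size, and between 14457733 and 18288854 fragments were counted in a library. Members took between 0.139% of them in control 2 and 0.286% in NE 6. Control 2 stood apart from the other libraries, with a median correlation of 0.831 across genes with the rest against 0.947 or more in every other library. Its summed level of 10 neutrophil markers was 9785 FPKM where the other 16 libraries lay between 39580 and 64870 FPKM, and its summed level of 9 cerebellar neuron markers was 549.5 FPKM where the other 2 controls had 204.9 and 215.2 FPKM and the NE libraries 18.8 to 28.3 FPKM. Hair cell markers were low in every library, with 8 genes summing to between 10.9 and 22.02 FPKM. Myo7a, the highest of them, had group means of 4.79 to 5.48 FPKM. Slc26a5, the motor protein of outer hair cells, had a mean of 0.45 FPKM or less in each group. In such bulk RNA, fewer cells of a type and less RNA per cell cannot be told apart.

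Receptors of myeloid cells and ligands both stood among the most abundant members. Cxcr2, the neutrophil receptor for several CXC ligands, had the highest mean of all 59 genes at 129.8 FPKM over the 17 libraries. Cxcr4, the receptor of Cxcl12, followed with 91.4 FPKM, Ccr1, a receptor of neutrophils and monocytes, reached 70.2 FPKM, and Ccr2, the receptor of inflammatory monocytes, reached 47.4 FPKM. The most abundant ligand among the members was Ccl6, a CC chemokine of myeloid cells, with a mean of 73.4 FPKM, while Ppbp and Pf4, outside the symbol rule, had group means of 279.8 FPKM or more and 119.3 FPKM or more. Cxcl12, the stromal ligand of Cxcr4, reached 60.7 FPKM, Cxcl5 49.4 FPKM and Cxcl17, a mucosal chemokine, 45.2 FPKM. Ccl3 and Ccl4, the macrophage inflammatory proteins, had means of 39.8 and 28.2 FPKM. Cxcl2, a ligand of Cxcr2, had 35.2 FPKM and Ccl9, a ligand of Ccr1, 30.5 FPKM. At the other end, 11 members stayed under 1 FPKM in every library, among them Xcl1, a ligand of T and NK cells, its receptor Xcr1 and the lymphocyte receptors Ccr4 and Ccr9. In all, 17 members had a mean of at least 10 FPKM and 42 reached 1 FPKM in at least 3 libraries of each comparison and were tested.

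**Figure D1:**
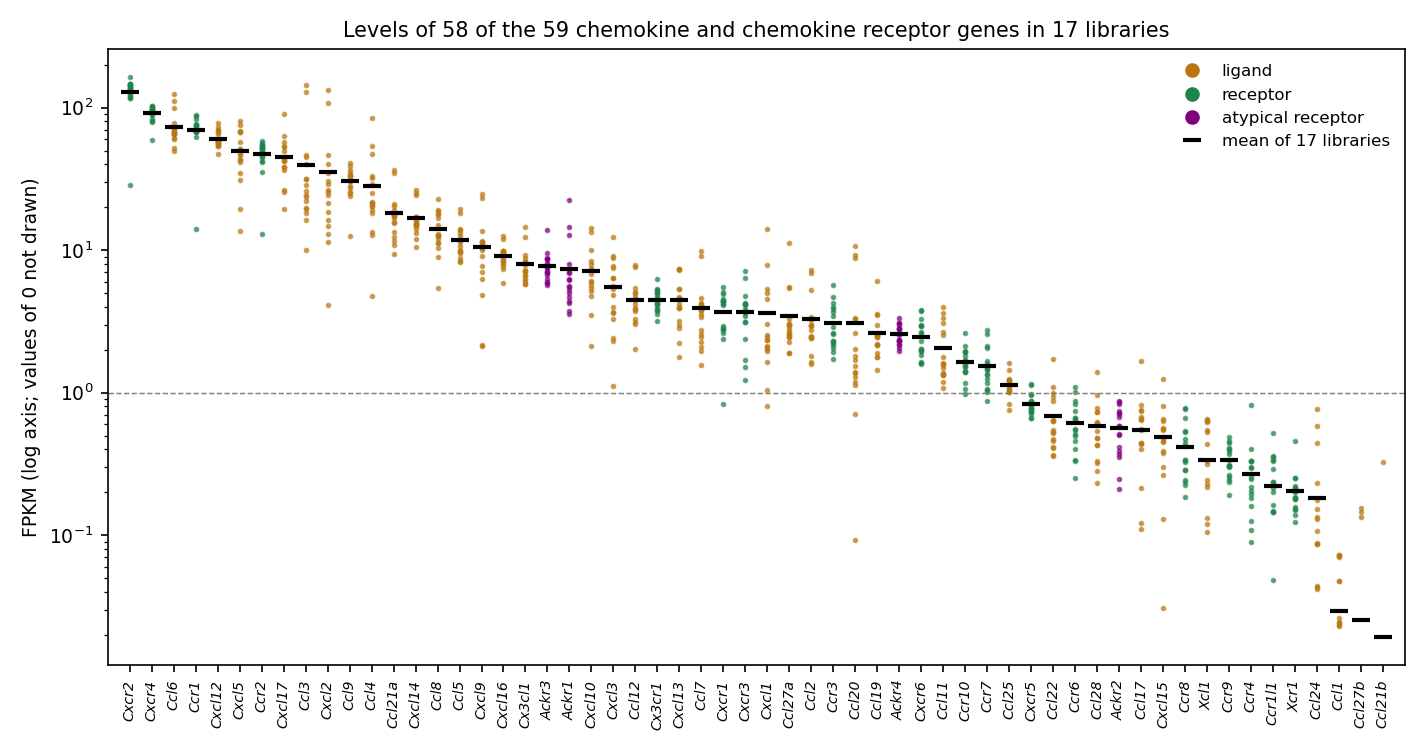
FPKM (log axis) of 58 of the 59 members in each of the 17 libraries (points, colored by role), ordered by the mean over all libraries (black dash). Cxcr2 leads with a mean of 129.8 FPKM, and the dashed grey line marks 1 FPKM.

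Receptors of neutrophils and monocytes differed more between the controls than between the exposed libraries. Cxcr2 read 123, 28.6 and 132 FPKM in controls 1 to 3, with a lowest, median and highest value of 116, 137 and 147 FPKM in NE and 120, 140 and 163 FPKM in brimonidine. Ccr1 read 62.0, 14.1 and 74.5 FPKM in the controls, 67.0, 70.6 and 89.4 FPKM in NE and 68.3, 75.7 and 87.1 FPKM in brimonidine. In both genes control 2 was far below every other library, the same library that was low in the summed neutrophil markers, and the part of this in the comparisons with control was not tested. Cxcr4 was steadier, with 97.6, 58.8 and 79.9 FPKM in the controls, 80.2, 93.9 and 98.3 FPKM in NE and 82.6, 98.0 and 102 FPKM in brimonidine. Of the 42 members tested, control 2 was the lowest control for 25, control 3 for 9 and control 1 for 8.

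The first comparison asked how the exposed cochlea differed from the unexposed cochlea after 2 days. Between NE and control, 3 of the 42 members passed an adjusted p under 0.05 with a difference of at least 2-fold (limma on log2 of FPKM plus 1, Benjamini-Hochberg over 15950 genes), while 5.76% of all genes tested did so. The interferon-induced T-cell ligand Cxcl10 was higher, against 0.27% of all genes called in that direction, and the skin T-cell ligand Ccl27a and the atypical receptor Ackr1 were lower, against 5.49%. Most members had a positive log2 fold change, 35 of 42 in number with Cxcl10 included, and the median over the 42 was 0.31. The median over all genes was -0.044, and 43.9% of genes were higher. Without control 2 the median of the members was 0.11 with 32 of 42 positive, and with array weights, which give less weight to libraries that fit the model poorly, it was 0.062 with 24 of 42 positive. Groups did not overlap for 2 members above the controls, where 3.24% of all genes did so, and for 2 members below, where 15% of all genes did so.

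Among ligands, Cxcl10 read 5.99, 2.14 and 3.51 FPKM in the controls and a lowest, median and highest value of 6.07, 8.01 and 14.3 FPKM in NE. Every NE library was above every control, NE 2 and NE 5 being the highest with 13.4 and 14.3 FPKM, and the nearest values were 6.07 and 5.99 FPKM. The log2 fold change was 1.11 ± 0.29 (SE, n = 7 and 3, limma adjusted p = 0.0288, exact two-sided permutation p = 0.00833, the smallest this design allows). Without control 2 it was 0.83 with an adjusted p of 0.15, and the adjusted p was also above 0.05 without control 3 (0.0707), NE 2 (0.0505) or NE 7 (0.0544). Cxcl10 shares 133 exon bases with Art3 on the other strand. The strand setting of the counting is not given in the sources used here, so fragments of such overlapping genes cannot be told apart. Cxcl9, the other interferon-induced ligand of Cxcr3 among the members, read 7.71, 2.14 and 4.82 FPKM in the controls against 2.17, 11.3 and 24.9 FPKM in NE, and its groups overlapped (log2 fold change 1.08 ± 0.59, limma adjusted p = 0.222).

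Ccl27a, a ligand of Ccr10 known from skin, read 5.44, 11.3 and 5.52 FPKM in the controls and 1.91, 2.57 and 3.03 FPKM in NE. The groups did not overlap, and control 2 was the highest library. It fell by 1.17 on the log2 scale (SE 0.187, limma adjusted p = 0.00208), and without control 2 the log2 fold change was -0.86 with an adjusted p of 0.00121, below the 2-fold limit. The cerebellar neuron markers moved the same way, with 8 of 8 tested lower in NE at an adjusted p under 0.05 and sums of 204.9, 549.5 and 215.2 FPKM in the controls against 18.8 to 28.3 FPKM in NE, and their part in the value of Ccl27a was not tested. Ccl27b, a near-identical copy, was listed at no more than 0.155 FPKM in any library, so reads could be split between them in a way that the values do not show. The gene lies at chr4:41769467-41774247 on the minus strand (GRCm38) and shares 8 exon bases with Il11ra1 on the other strand.

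Other ligands had higher means in NE without passing the test with 2 groups in the model. In 1 model of all 17 libraries, Ccl9 and Ccl21a had an adjusted p of 0.0159 and 0.032. Ccl9 read 24.1, 12.7 and 25.6 FPKM in the controls and 25.3, 30.8 and 36.7 FPKM in NE, and the groups overlapped by 1 NE library (log2 fold change 0.60 ± 0.196, limma adjusted p = 0.0656; 0.29 with an adjusted p of 0.246 without control 2, and 0.78 with 0.0443 without control 3). Ccl21a, a ligand of Ccr7 that guides lymphocytes and dendritic cells, read 12.4, 9.46 and 11.7 FPKM in the controls. In NE its values ran from 10.9 over a median of 17.8 to 36.8 FPKM, and NE 2 and NE 5 again held the highest values with 35.0 and 36.8 FPKM (log2 fold change 0.82 ± 0.32, adjusted p = 0.107). Ccl21b was listed at no more than 0.328 FPKM in any library, and a split of reads between it and Ccl21a would not show in the values. Cxcl3, a ligand of Cxcr2, read 3.30, 1.11 and 6.36 FPKM in the controls against 3.63, 7.68 and 12.3 FPKM in NE (log2 fold change 1.00 ± 0.383, adjusted p = 0.103; 0.52 with an adjusted p of 0.458 without control 2, and 1.43 with 0.041 without control 3).

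The abundant inflammatory ligands had no stable control level. Ccl3 read 18.3, 10.1 and 128 FPKM in controls 1 to 3, Cxcl2 read 11.4, 4.14 and 108 FPKM, and Ccl4 read 13.3, 4.79 and 53.4 FPKM. Control 3 was above 6 of the 7 NE libraries for all 3 ligands and below NE 6, which had 144 FPKM of Ccl3, 133 FPKM of Cxcl2 and 85.0 FPKM of Ccl4. Il1b, the cytokine interleukin 1 beta, which is no member, followed the same libraries, with 33.8, 19.4 and 183 FPKM in the controls and 197 FPKM in NE 6. Leaving out control 3, the log2 fold change of Cxcl2 was 2.31 (limma adjusted p = 0.0381) and that of Ccl4 1.88 (adjusted p = 0.0459), and with all controls they were 1.05 (adjusted p = 0.385) and 1.02 (adjusted p = 0.269). Leaving out control 2 instead, they were 0.11 (adjusted p = 0.961) and 0.26 (adjusted p = 0.854). Ccl3 changed direction with the controls used, from 0.36 with all 3 to -0.36 without control 2, with adjusted p of 0.76 and 0.85.

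Among receptors, 11 of 12 tested had a positive log2 fold change in NE. With no minimum difference, 2 of the 42 members were higher at an adjusted p under 0.05, where 2.12% of all genes were. Ccr2 read 41.6, 13.0 and 35.1 FPKM in the controls and 41.9, 48.4 and 54.6 FPKM in NE, so that all NE libraries were above all controls by as little as 41.9 against 41.6 FPKM (log2 fold change 0.81 ± 0.272, adjusted p = 0.0719). Its log2 fold change was 0.32 without control 2, and in 1 model of all 17 libraries its adjusted p was 0.0124. The summed monocyte and macrophage markers also separated the groups, with 354.6 to 506.2 FPKM in the controls and 546.1 to 661.2 FPKM in NE and 2 of 10 higher at an adjusted p under 0.05, and their part in the value of Ccr2 was not tested. For Cxcr3, the receptor of Cxcl9 and Cxcl10, the log2 fold change was 0.82 ± 0.331 (adjusted p = 0.116), with NE 2 and NE 5 the highest at 6.42 and 7.12 FPKM and NE 6 the lowest exposed library at 1.69 FPKM.

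Of the 3 atypical receptors tested, 1 fell. Ackr1, the Duffy antigen receptor of venules and red cells, read 12.8, 22.6 and 14.4 FPKM in the controls and 3.72, 5.56 and 7.99 FPKM in NE, with no overlap. It fell by 1.35 on the log2 scale (SE 0.22, limma adjusted p = 0.00231), and without control 2 by 1.13 (adjusted p = 0.0124). Ackr1 lies at chr1:173331886-173333750 on the minus strand (GRCm38), and 361 of its 1405 exon bases also belong to Cadm3, a neuronal adhesion gene on the same strand. Cadm3 moved with it: 21.2, 55.3 and 21.2 FPKM in the controls against 1.80 to 3.63 FPKM in NE. The part of Cadm3 fragments in the value of Ackr1 was not tested, and the endothelial markers, 8 genes, summed to between 44.4 and 64.7 FPKM in the controls and 49.8 to 61.8 FPKM in NE. Ackr3, which binds Cxcl12, and Ackr4, which binds Ccl19 and Ccl21, had log2 fold changes of -0.21 and 0.05 (adjusted p = 0.499 and 0.797).

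**Figure D2:**
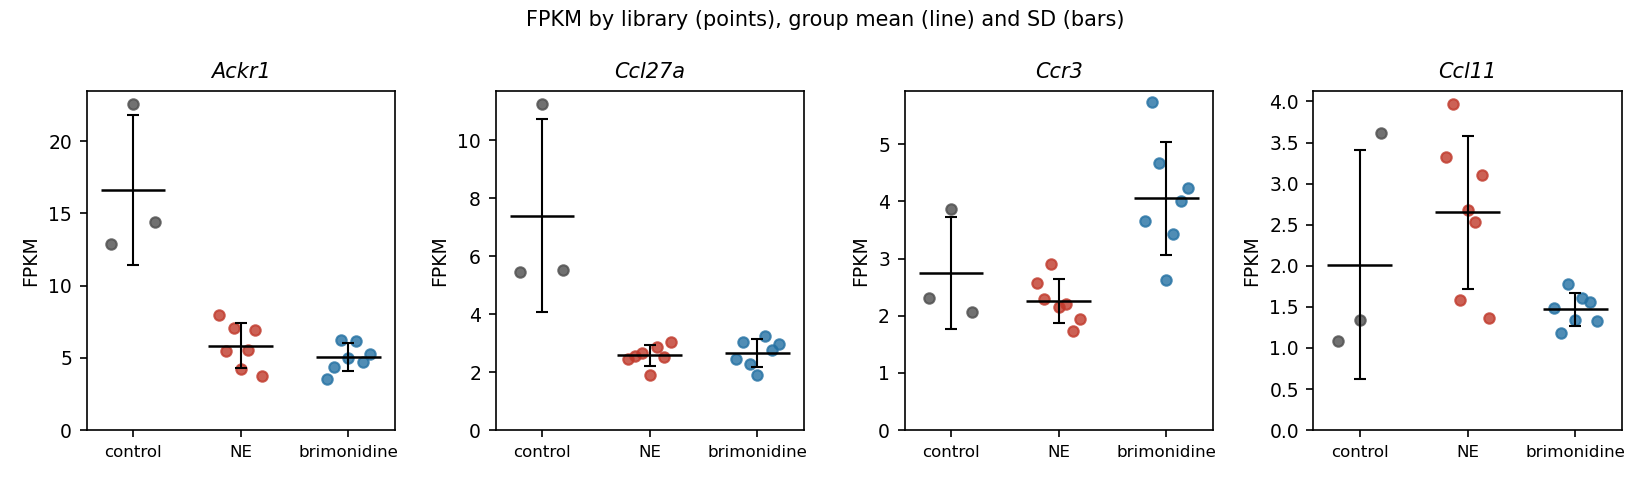
FPKM of Ackr1, Ccl27a, Ccr3 and Ccl11 in the 3 control, 7 NE and 7 brimonidine libraries (points, in order of library number), with the group mean (line) and SD (bars). Ackr1 and Ccl27a are higher in all controls than in any exposed library, and Ccr3 has a mean of 4.05 FPKM in brimonidine and 2.26 FPKM in NE.

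The second comparison asked how exposed mice with brimonidine differed from exposed mice without it. Of the 42 members, 0 passed the adjusted test (limma, 15707 genes, 0% of them called), and a fit of the recovered fragments with voom also called 0. At an unadjusted p under 0.05 there were 13 members, which is 31.0% of those tested, where 5.77% of all genes tested had such a p. Of these, 10 were lower in brimonidine, where 2.46% of all genes were, and 3 were higher, where 3.3% were. With all 17 libraries in 1 model, 7 members had such a p, 5 of them lower, as had 462 of 16416 genes. Of 27 ligands, 22 had a negative log2 fold change, with a median of -0.23, as had 4 of 12 receptors, while 57.7% of all genes tested were higher. The median over all 42 was -0.15, or -0.09 without NE 2, and that over all genes 0.015. Members share libraries and several share a cell type, so their counts are no count of independent genes. No member separated the groups, against 0.102% of all genes above and 0.0382% below.

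**Figure D3:**
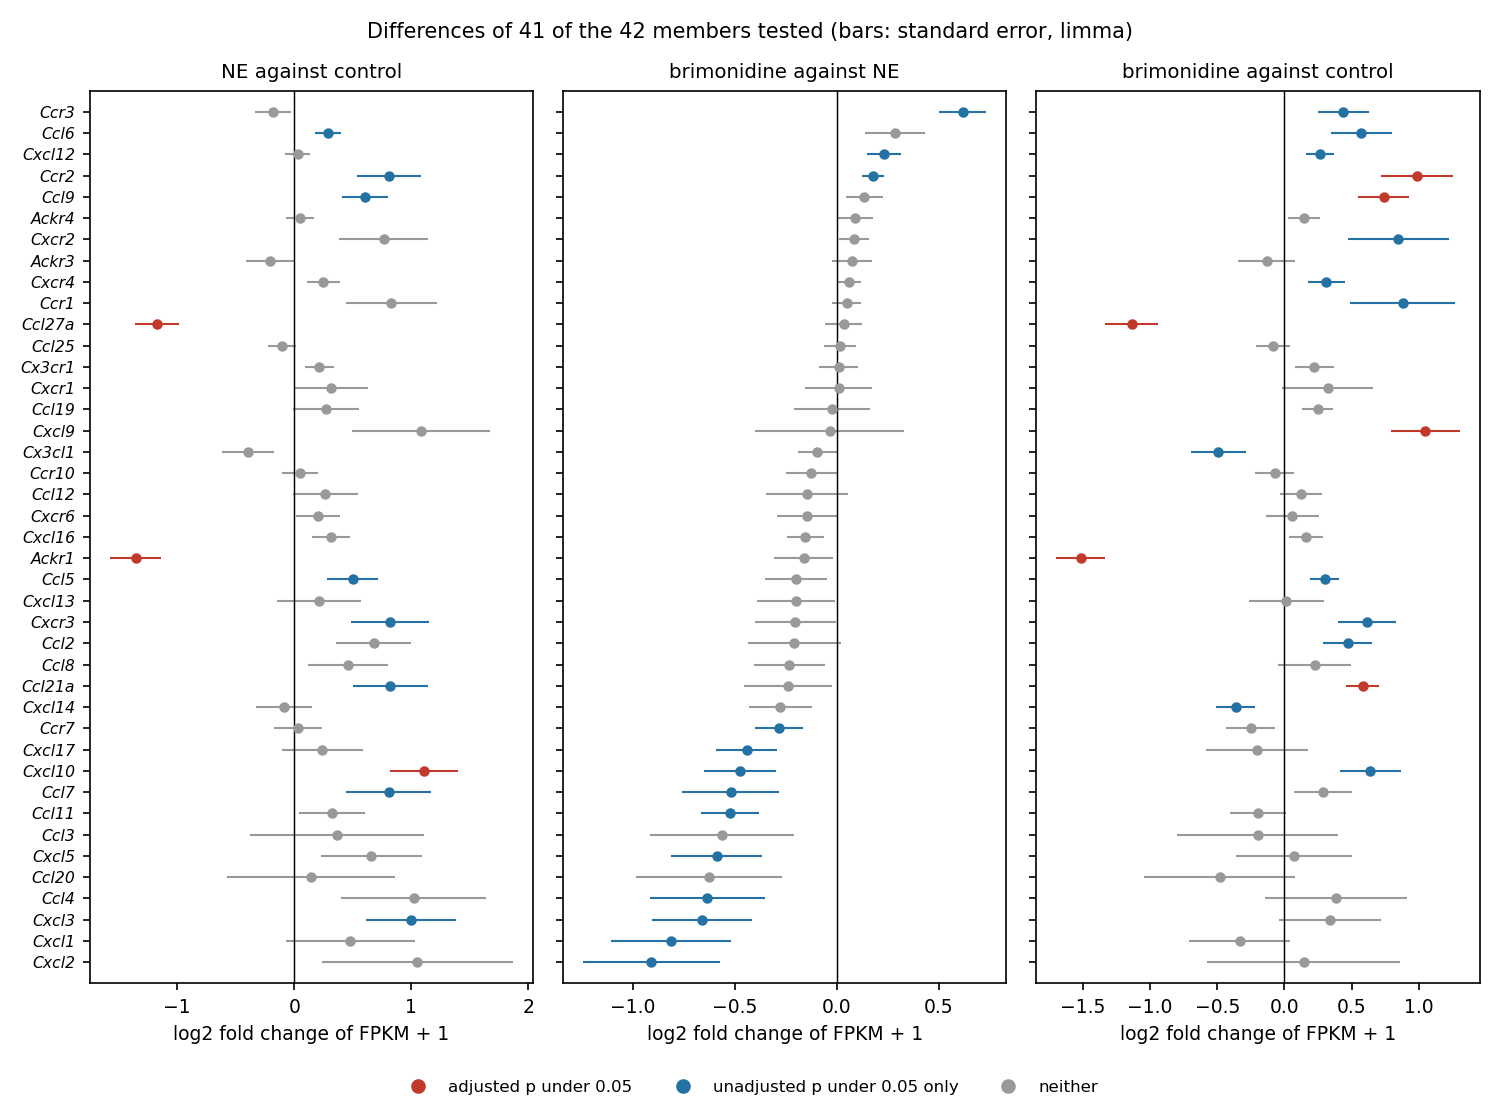
Log2 fold change of FPKM plus 1 with its standard error (limma) for 41 of the 42 members tested in each comparison, ordered by brimonidine against NE. Red marks an adjusted p under 0.05 (3, 0 and 6 of the members drawn, from left to right) and blue an unadjusted p under 0.05 only. In the middle panel the ligands Cxcl2, Cxcl1, Cxcl3 and Ccl4 are lowest and Ccr3 is highest.

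Of the CXC ligands of Cxcr2, Cxcl1, Cxcl2, Cxcl3 and Cxcl5 had lower means in brimonidine. The more abundant Ppbp, a Cxcr2 ligand of platelets outside the symbol rule, went the other way, with 236.7 to 316 FPKM in NE and 265.7 to 416 FPKM in brimonidine (log2 fold change 0.23 ± 0.106, limma adjusted p = 0.865). Cxcl1, Cxcl2, Cxcl3 and Cxcl5 lie together on chromosome 5, between bases 90759360 and 90905938 (GRCm38). Cxcl2 ran from 18.4 over a median of 34.8 to 133 FPKM in NE and from 13.1 over 21.5 to 30.6 FPKM in brimonidine. The groups overlapped, and NE 6 alone was above 46.3 FPKM. Its log2 fold change was -0.91 ± 0.335 (SE, n = 7 and 7, limma adjusted p = 0.757, exact two-sided permutation p = 0.0175), and -0.62 without NE 6.

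Cxcl1 ran from 1.63 over 4.51 to 14.1 FPKM in NE and from 1.04 over 2.11 to 2.55 FPKM in brimonidine. All but 2 NE libraries, NE 1 and NE 4, lay above the highest brimonidine library. The log2 fold change was -0.81 ± 0.293 (adjusted p = 0.733, exact permutation p = 0.0198), and -0.56 without NE 6.

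Cxcl3 ran from 3.63 over 7.68 to 12.3 FPKM in NE and from 2.30 over 4.01 to 7.44 FPKM in brimonidine, a log2 fold change of -0.66 ± 0.245 (adjusted p = 0.769, exact permutation p = 0.0338). Cxcl5 ran from 31.2 over 67.1 to 80.4 FPKM in NE and from 19.3 over 42.6 to 50.9 FPKM in brimonidine, a log2 fold change of -0.59 ± 0.222 (adjusted p = 0.789, exact permutation p = 0.0321). For Cxcl5 the highest value was in NE 5 and not in NE 6, and 5 of 7 NE libraries were above the highest brimonidine library. Their receptor Cxcr2 had a log2 fold change of 0.09 ± 0.0726 between the groups, and the related receptor Cxcr1 0.01 ± 0.164. The summed neutrophil markers had medians of 43650 FPKM in NE and 42290 FPKM in brimonidine, with NE 6 highest at 64870 FPKM.

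The promoters of Cxcl1, Cxcl2 and Cxcl3 are shown because these ligands had lower means together and carry the same NF-κB consensus match, and that of Cxcl10 because it carries a pair of such matches. NF-κB is a transcription factor of inflammatory genes. The letters are the 200 bases before the RefSeq start on GRCm38.p6, 5′ to 3′ on the strand of the gene, with matches to the NF-κB consensus on either strand in capitals. Overlapping matches on both strands are joined.
Cxcl1: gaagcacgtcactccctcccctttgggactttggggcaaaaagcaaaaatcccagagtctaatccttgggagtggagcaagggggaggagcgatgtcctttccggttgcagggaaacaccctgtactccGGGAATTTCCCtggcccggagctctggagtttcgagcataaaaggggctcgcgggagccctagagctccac
Cxcl2: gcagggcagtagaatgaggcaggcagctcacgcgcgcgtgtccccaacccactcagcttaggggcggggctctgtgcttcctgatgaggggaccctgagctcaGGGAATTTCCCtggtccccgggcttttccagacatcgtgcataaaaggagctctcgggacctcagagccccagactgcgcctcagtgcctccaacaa
Cxcl3: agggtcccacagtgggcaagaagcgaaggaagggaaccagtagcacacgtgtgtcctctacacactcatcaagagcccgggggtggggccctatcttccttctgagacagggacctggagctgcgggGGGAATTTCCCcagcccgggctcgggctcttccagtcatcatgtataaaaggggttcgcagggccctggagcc
Cxcl10: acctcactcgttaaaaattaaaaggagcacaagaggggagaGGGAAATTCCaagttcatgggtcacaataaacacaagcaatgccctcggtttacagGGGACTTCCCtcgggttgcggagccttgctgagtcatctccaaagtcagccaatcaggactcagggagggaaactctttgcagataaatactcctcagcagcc
These stretches are chr5:90891045-90891244 (plus strand), chr5:90903699-90903898 (plus), chr5:90785901-90786100 (plus) and chr5:92348890-92349089 (minus). Counted with -1 as the base just before the start, the match GGGAATTTCC began at -71 in Cxcl1, -97 in Cxcl2 and -73 in Cxcl3, and Cxcl10 held GGGAAATTCC at -159 and GGGACTTCCC at -103. RefSeq promoters of 300 bases were given for 46 of the 59 members, as 53 promoters. Of these 53, 10 (18.9%) held the consensus on at least 1 strand, where 1480 of all 32851 promoters (4.51%) did. The other members with a match were Ccl9, Ccl20, Ccl27a, Ccr3, Ccr6 and Ackr2, and that of Ccl27a lay after the start. Of these, Ccl9, Ccl27a and Ccr3 had higher means in brimonidine than in NE, and Ccl20, Ccr6 and Ackr2 lower means. The match of Ccr3 was also GGGAATTTCC, on the other strand. For Cxcl5 and Ccl4, which had lower means as well, no match was listed, and not every member had a promoter. A match is a description of letters, and no binding was measured.

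Ccl3 and Ccl4 shared the high value of NE 6. Ccl4 ran from 20.4 over 29.1 to 85.0 FPKM in NE and from 12.7 over 20.3 to 31.9 FPKM in brimonidine (log2 fold change -0.64 ± 0.282, adjusted p = 0.857, exact permutation p = 0.0559). Ccl3 ran from 19.7 over 31.6 to 144 FPKM in NE and from 16.2 over 24.3 to 40.4 FPKM in brimonidine (log2 fold change -0.56 ± 0.354, adjusted p = 0.899). Without NE 6 these were -0.41 and -0.25. For Il1b the log2 fold change was -1.11 ± 0.257 (limma adjusted p = 0.334), with 56.4 to 197 FPKM in NE and 24.3 to 58.1 FPKM in brimonidine.

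**Figure D4:**
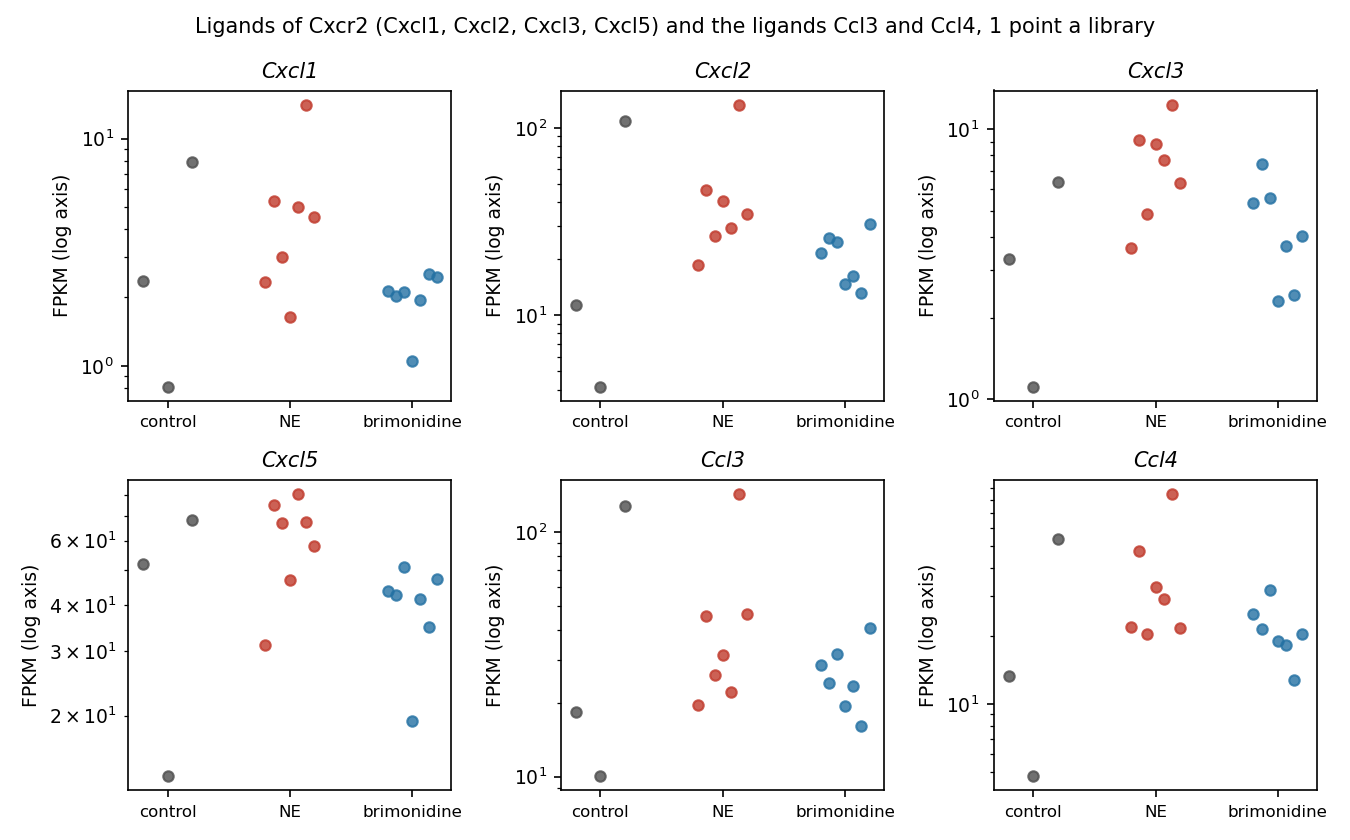
FPKM (log axis) of the Cxcr2 ligands Cxcl1, Cxcl2, Cxcl3 and Cxcl5 and of Ccl3 and Ccl4, 1 point a library in order of library number within its group. Control 3 and NE 6 hold the highest values of Cxcl2 and Ccl3. The brimonidine and NE libraries overlap in every panel, with the lower median in brimonidine.

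Further ligands were lower in mean. Ccl11 (eotaxin), the ligand of Ccr3, ran from 1.36 over 2.68 to 3.97 FPKM in NE and from 1.18 over 1.49 to 1.77 FPKM in brimonidine. Of the NE libraries, 5 of 7 were above every brimonidine library, and 23 to 76 fragments in a library stood behind these values. The log2 fold change was -0.52 ± 0.143 (adjusted p = 0.521, exact permutation p = 0.00932). Cxcl17 ran from 42.4 over 49.3 to 63.2 FPKM in NE and from 25.4 over 38.5 to 53.1 FPKM in brimonidine (log2 fold change -0.44 ± 0.148, adjusted p = 0.668). Cxcl10 ran from 4.74 over 5.71 to 8.45 FPKM in brimonidine (log2 fold change -0.47 ± 0.177, adjusted p = 0.779), and Ccl7 from 2.11 over 2.74 to 4.23 FPKM against 2.28, 4.16 and 9.94 FPKM in NE (log2 fold change -0.52 ± 0.239, adjusted p = 0.859).

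Among receptors, Ccr3, which is known from eosinophils and basophils, had the smallest p of the family. It ran from 1.72 over 2.21 to 2.90 FPKM in NE and from 2.62 over 4.00 to 5.74 FPKM in brimonidine. Only brimonidine 4 lay below the highest NE library, NE 3. The log2 fold change was 0.62 ± 0.117 with an unadjusted p of 9.2e-05, an adjusted p of 0.172 and an exact permutation p of 0.00117. It was 0.58 without NE 6, where its adjusted p was 0.312. In the controls Ccr3 read 2.30, 3.87 and 2.07 FPKM, so control 2 lay within the brimonidine range. Of 8 markers of eosinophils, basophils and mast cells, 0 had an unadjusted p under 0.05 between the groups (limma), with a median log2 fold change of 0.08. Their summed levels were 750 to 1338 FPKM in NE and 844.2 to 1408 FPKM in brimonidine, and Prg2 was the highest of them. Prg2 and Epx had log2 fold changes of -0.11 and -0.14, and the other markers ran from 0.06 in Ear2 to 0.22 in Mcpt8. The part of these cells in the value of Ccr3 was not tested.

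Ccr2 ran from 41.9 over 48.4 to 54.6 FPKM in NE and from 52.0 over 53.6 to 58.2 FPKM in brimonidine. All but 1 NE library, NE 1, lay below every brimonidine library. The log2 fold change was 0.18 ± 0.0546 (adjusted p = 0.627, exact permutation p = 0.00583), a difference of 48.0 ± 4.24 against 54.3 ± 2.38 FPKM (SD, n = 7 each). Cxcl12, the ligand of Cxcr4, ran from 47.3 over 56.1 to 69.6 FPKM in NE and from 56.8 over 67.0 to 78.1 FPKM in brimonidine (log2 fold change 0.23 ± 0.0831, adjusted p = 0.733, exact permutation p = 0.0256). Cxcr4 itself had a log2 fold change of 0.06 ± 0.0586. Ccr7, the receptor of Ccl19 and Ccl21, ran from 1.25 to 2.57 FPKM in NE and from 0.877 to 1.66 FPKM in brimonidine (log2 fold change -0.28 ± 0.117, adjusted p = 0.851).

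Most members varied more among NE libraries than among brimonidine libraries. The coefficient of variation was lower in brimonidine for 31 of the 42 members (73.8%), with a median over members of 28.2% in NE and 18.5% in brimonidine. Over all genes tested it was lower in brimonidine for 58.7%, with medians of 12.7% and 11.3%. Without NE 6 it was lower in brimonidine for 29 of the 42 members and for 38.1% of all genes. Cxcl2 had 83.1% in NE and 31.0% in brimonidine, Cxcl1 81.8% and 24.1%, and Cxcl9 65.3% and 15.0%. Different NE libraries were high for different members. NE 6 was the highest NE library for 9 members, among them Cxcr2, Ccr1, Ccl3, Cxcl2, Cxcl1 and Ccl20, a ligand of Ccr6, and it was the lowest for 9 others, among them Cxcl9, Cxcr3 and Cxcr6, which is a receptor of T cells. NE 2 was the highest for 12 members and NE 5 for 10, with Ccl2, Ccl7 and Ccl8 led by NE 2 and Cxcl9, Cxcl10, Cxcr3 and Ccl5 by NE 5. Ccl2 read 7.29 and 6.87 FPKM in these libraries and 1.65 to 3.41 FPKM in the other 5, and Cxcl9 read 23.4 and 24.9 FPKM against 2.17 to 13.6 FPKM.

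**Figure D5:**
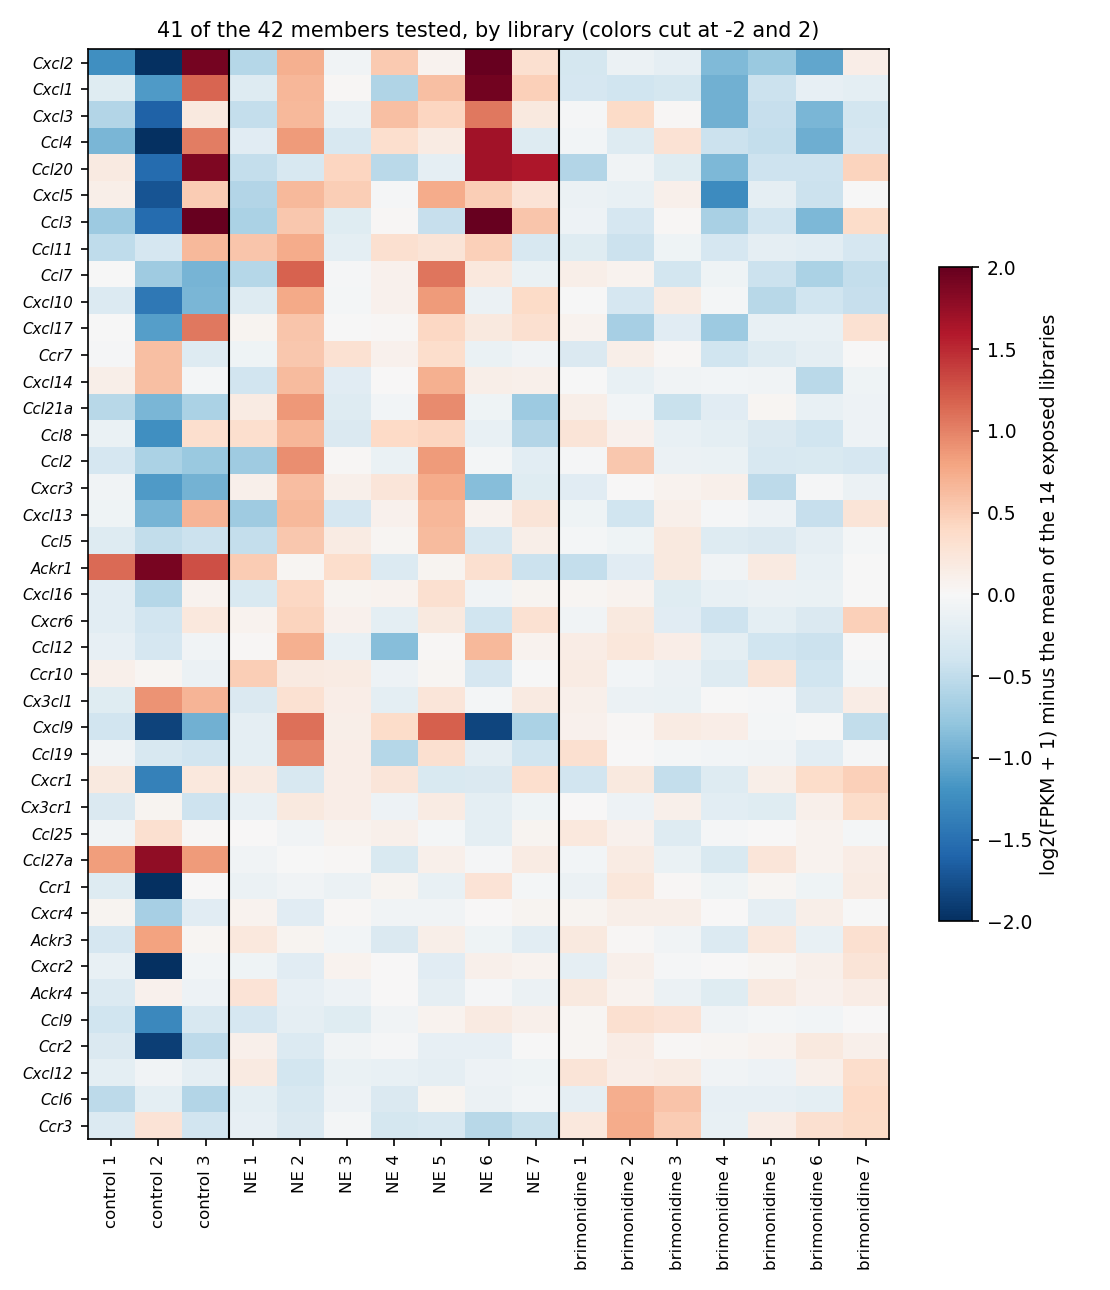
Log2 of FPKM plus 1 for 41 of the 42 members tested in each library, minus the mean of the 14 exposed libraries, with members ordered by brimonidine against NE. Control 2 is the lowest control for 24 of the 41 members drawn, control 3 and NE 6 are high for Cxcl2 and Ccl3, and NE 2 and NE 5 are high for Cxcl9, Ccl2 and Ccl7.

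The third comparison set the brimonidine group against the unexposed controls, the same 3 controls as before. Of the 42 members, 3 passed with a 2-fold difference (limma, 15947 genes, 5.73% of all called): Cxcl9 was higher, against 0.169% of all genes, and Ackr1 and Ccl27a were lower, against 5.56%. A further 4 were higher at an adjusted p under 0.05 with less than 2-fold, so that 5 of 42 were higher at that adjusted p, against 3.47% of all genes. Groups did not overlap for 5 members above the controls, against 5.07% of all genes, and for 2 below, against 14.3%. Without control 2, 1 member passed with a 2-fold difference, Ackr1.

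Cxcl9 ran from 7.08 over 10.5 to 11.7 FPKM in brimonidine, and only brimonidine 7 lay below control 1 at 7.71 FPKM. It rose by a log2 fold change of 1.05 ± 0.255 (limma adjusted p = 0.0203), and without control 2 by 0.66 (adjusted p = 0.0476). Ccl21a ran from 13.4 over 17.3 to 20.4 FPKM, above all controls, and rose by 0.58 ± 0.123 (adjusted p = 0.0101). Ccl9 ran from 30.7 over 32.5 to 40.7 FPKM, above the controls as well, and rose by 0.74 ± 0.188 (adjusted p = 0.0255). Both rose also without control 2, by 0.48 and 0.43 (adjusted p = 0.0421 and 0.0416). In 1 model of all 17 libraries Cxcl9 and Ccl21a did not pass, with adjusted p of 0.109 and 0.111.

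Of the receptors, Ccr2 in brimonidine, at 52.0 FPKM or more, was above all controls and rose by 0.99 ± 0.267 (adjusted p = 0.0317; from 0.0512 to 0.06 without any 1 brimonidine library but brimonidine 5), and by 0.49 without control 2 (adjusted p = 0.00257). Of 10 monocyte and macrophage markers, 4 were higher at an adjusted p under 0.05, with sums of 506.2, 354.6 and 491.1 FPKM in the controls and 538.7 to 653.1 FPKM in brimonidine, and their part in the rise of Ccr2 was not tested. For Cxcr3 the log2 fold change was 0.61 ± 0.214 (adjusted p = 0.072). Ackr1 ran from 3.56 over 5.02 to 6.25 FPKM and fell by 1.52 on the log2 scale (SE 0.179, adjusted p = 0.00111), and Cadm3, which shares exon bases with it, read 1.58 to 7.17 FPKM. Ccl27a ran from 1.91 over 2.77 to 3.27 FPKM and fell by 1.14 (SE 0.197, adjusted p = 0.00351). Between brimonidine and NE these last members had log2 fold changes of -0.16 ± 0.143 and 0.03 ± 0.0905.

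Other genes of the chemokine system were read from a list of 52, which holds G proteins and kinases of the signal from the receptors, regulators of Rac and Rap, integrins, syndecans, proteases and chemokine-like ligands and receptors. Of these, 50 were tested in each comparison. Between NE and control 1 was higher and 2 were lower at an adjusted p under 0.05, where 2.12% and 12% of all genes were, and without control 2 there was 1, Gnai1, which was lower (limma). Dock2, which activates Rac in migrating leukocytes, rose by a log2 fold change of 0.65 ± 0.189 (adjusted p = 0.0441), Gnai1, an inhibitory G protein subunit, fell by 1.24 (SE 0.207, adjusted p = 0.00272), and Grk3, a receptor kinase, fell by 0.53 (SE 0.115, adjusted p = 0.0122). Dock2 read 16.9, 7.38 and 13.2 FPKM in the controls and 16.3 to 21.6 FPKM in NE, and without control 2 its log2 fold change was 0.34 (adjusted p = 0.125). Without control 2, Gnai1 fell by 0.88 (adjusted p = 0.000552), and for Grk3 the log2 fold change was -0.42 (adjusted p = 0.0581). Gnai1 was highest in control 2, at 27.4 FPKM, where the other 2 controls had 12.2 and 12.7 FPKM. The summed cerebellar neuron markers were also highest in control 2 and lower in NE than in the controls, and their part in the fall of Gnai1 was not tested.

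Between brimonidine and NE 0 of the 50 passed (limma) and 6 had an unadjusted p under 0.05, where 5.77% of all genes had. The smallest were those of the syndecans Sdc1 and Sdc4, cell surface proteoglycans, with log2 fold changes of -0.36 and -0.23, of Rgs18, a regulator of G protein signaling in platelets, with 0.19, and of Rasgrp2, a Rap activator of platelets and neutrophils, with 0.12 (adjusted p from 0.633 to 0.857). Sdc1 is also on the plasma cell list, which had a median log2 fold change of -0.33 with 2 of 7 genes lower at an unadjusted p under 0.05 (limma). The part of plasma cells in the value of Sdc1 was not tested. Between brimonidine and control 6 of the 50 were higher and 3 lower at an adjusted p under 0.05, where 3.47% and 12.3% of all genes were. Without control 2 there were 1 higher and 2 lower. Gnai1 fell by 1.31 and Grk3 by 0.47 (adjusted p = 0.00324 and 0.0075), and Rgs2, another regulator of G protein signaling, and Dock2 rose by 0.45 and 0.70 (adjusted p = 0.0199 and 0.0262). Without control 2 Dock2 rose by 0.39 (adjusted p = 0.0261), and the adjusted p of Rgs2 was 0.0689.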

How the data were processed

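Total RNA was extracted with TRIzol and libraries were made with a stranded TruSeq mRNA kit, per the labels. The submitters' processing notes name Trimmomatic, HISAT2, Cufflinks, HTSeq and the build mm10. The authors deposited 1 table of FPKM values for 35285 genes, with fragments divided by exon length and by the library's total and no further scaling. Multiplied by merged exon lengths of GENCODE M21, 58 of 59 members gave whole fragments in every library (tolerance 0.02 of a fragment), all but Ccr6. Between 14457733 and 18288854 fragments were counted in a library, and a gene with few fragments is known less precisely.

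limma 3.58.1 (R 4.3.3, eBayes with a trend) was fitted to log2(FPKM + 1) with only 2 groups in a model, for genes that reached 1 FPKM in 3 or more of those libraries, and p values were adjusted by Benjamini-Hochberg over all genes tested. Fold changes on this scale understate the change of low genes. A call needed both an adjusted p under 0.05 and a log2 difference of 1 or more in either direction. For single members, an exact permutation test (two-sided) was added in Python 3.11.15. DESeq2, which the study used on counts, was not applied to the deposited FPKM values, and voom was used for the recovered fragments. On simulated data with 200 genes raised by 2 on the log2 scale, the fit called 192, 199 and 194 of them in NE against control, brimonidine against NE and brimonidine against control, with 5, 0 and 2 false calls, and smaller changes were not simulated. Libraries come from separate mice. No libraries of a group agreed within sampling noise.

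Members and lists were chosen with earlier results of these data known. Values are given for the 12 members with the highest mean, for the 8 tested members with the smallest p in each comparison and for their partners. For 1 member that falls under this rule the values are not reported here and it is not drawn, while counts over members include it. Members outside this rule that are named were chosen after their values were seen. Further lists were 10 genes each for monocytes and macrophages, which were also set beside Ccr2, for T and NK cells (9 of them measured) and for B cells. Shorter lists were for microglia, plasma cells, dendritic cells, platelets, erythroid cells, stroma, osteoblasts, cochlear epithelium and Schwann cells. Of these, monocytes and macrophages had 2 and plasma cells 1 gene higher in NE than in control at an adjusted p under 0.05, and dendritic cells, stroma and Schwann cells had 1 gene lower each. The rest of these lists had 0 with limma, with 1 gene each at an unadjusted p under 0.05 for microglia, T and NK cells and B cells. In brimonidine against control, monocytes and macrophages had 4 and plasma cells 1 gene higher, cerebellar neurons had 8, Schwann cells 3 and dendritic cells 1 gene lower, and the other lists had 0 with limma and 0 to 4 genes at an unadjusted p under 0.05. Brimonidine against NE gave 0 such genes on any list with limma, with 1 or 2 genes at an unadjusted p under 0.05 on 8 of the 17 cell type lists. Promoters came from RefSeq on GRCm38.p6. Alternatives were a pseudocount of 0.1, no filter, median-ratio and quantile scaling, all 17 libraries in 1 model, array weights, no minimum fold change, the replicate block, each library left out, and, added after seeing the data, recovered fragments with voom.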

Additional observations from a re-analysis of the deposited data

Results flagged for a closer look

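In groups of 7 libraries, a library is named here when its distance from the nearest other library is large against the range of the group on the log2 scale, which chance gives in about 1 of 20 groups. Of 46 groups tested, for 23 members, 4 had such a library. Ccl3 was at 143.6 FPKM in NE 6, where the next NE library had 46.2 FPKM. Cxcl5 was at 19.3 FPKM in brimonidine 4, where the next lowest brimonidine library had 34.8 FPKM, and Cxcl1 was at 1.04 FPKM in the same library, where the next lowest had 1.95 FPKM. Cxcl9 was at 7.08 FPKM in brimonidine 7, where the next lowest had 10.1 FPKM.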

How the results depend on the processing

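Brimonidine against NE had 0 members called under every alternative, with each library left out included (0 to 0). With NE against control, 3 members were called (1 higher), 7 with array weights (4 higher) and 1 to 5 with each library left out. With brimonidine against control, 3 were called (1 higher), 7 with no minimum fold change, 7 with array weights and 1 to 6 with each library left out. With array weights all 7 were lower, namely Ackr1, Cxcl1, Cxcl2, Cxcl17, Ccl3, Ccl4 and Ccl20, and neither Cxcl9 nor Ccl27a was among them. Among fits with a library left out, the lowest count in both was without control 2, where Ackr1 was the member left. The replicate numbers did not pair the libraries (correlations of deviations from -0.221 to 0.0832), and a fit with the replicate block called 0 and 1 members and 0 and 236 of all genes, against 918 and 913 without it. Without control 2, 368 and 468 of all genes were called.

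Array weights turned the direction of 15 of the 42 members between NE and control and of 14 between brimonidine and control. Between NE and control these included Ccr1 (log2 fold change -0.0033), Ccl4 (-0.64), Cxcl5 (-0.17), Cxcl2 (-1.29), Cxcl17 (-0.69), Ccl20 (-1.45, adjusted p = 0.0384) and Ccl3 (-1.62, and -0.029 with the replicate block). Quantile scaling turned 3 members there, among them Cxcl12 (-0.11). Between brimonidine and control, array weights turned among others Ccl4 (-1.15), Cxcl2 (-2.08) and Cxcl5 (-0.84). The cause was not tested. With no filter, Cxcl10 in NE against control and Ccr2 in brimonidine against control had an adjusted p of 0.0516 and 0.054. With each library left out, the value in NE against control ran from -0.022 to 1.10 for Cxcl5, -0.30 to 0.77 for Cxcl17, -0.36 to 1.41 for Ccl3 and -0.019 to 0.072 for Cxcl12. In brimonidine against control it ran from -0.37 to 1.24 for Ccl4, -0.74 to 0.33 for Cxcl17, -0.92 to 0.85 for Ccl3, -0.80 to 1.40 for Cxcl2 and -0.61 to 0.51 for Cxcl5. In brimonidine against NE, 7 of the 29 members with an unadjusted p of 0.05 or more, among them Cxcl9, Ccl27a and Cxcr1, changed direction under at least 1 alternative. Median-ratio scaling moved the median of all genes from -0.044 to 0.057 in NE against control. Low members such as Ccl11 rest on few fragments, and 3 controls limit both comparisons with them.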

Other observations

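Fractalkine, Cx3cl1, and its receptor on microglia and monocytes, Cx3cr1, had means of 7.68 and 4.59 FPKM in NE and 7.08 and 4.66 FPKM in brimonidine. Cx3cl1 read 6.05, 14.4 and 12.3 FPKM in the controls, and its log2 fold change between brimonidine and control was -0.49 ± 0.202 (limma adjusted p = 0.111). The epithelial and stromal ligand Cxcl14 had 18.1 ± 5.62 FPKM in NE and 14.3 ± 1.72 FPKM in brimonidine (SD, n = 7 each), with NE 2 and NE 5 highest at 25.1 and 26.6 FPKM.

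Ccl20, the ligand of Ccr6, read 2.63, 0.0927 and 10.7 FPKM in the controls, and in NE it was at 9.19 FPKM in NE 6 and 8.79 FPKM in NE 7 where the other 5 libraries had 1.19 to 3.30 FPKM. Its receptor Ccr6 stayed between 0.25 and 1.09 FPKM in all 17 libraries. The B-cell ligand Cxcl13 ran from 2.23 to 7.39 FPKM in NE, while its receptor Cxcr5 ran from 0.667 to 0.983 FPKM. The pseudogenes Ccl19-ps1 and Ccl19-ps3 were listed at 0.839 to 7.81 and 0.196 to 6.10 FPKM, and Cxcl11 at 0.0767 to 0.417 FPKM.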
